A study of Mus musculus with 36 samples.

Results

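The genes examined here were Isl1, Isl2, Lhx3, Lhx4, Mnx1, Lmo4 and Ldb1, which encode the LIM homeodomain factors, the homeodomain factor and the LIM-binding proteins around which motor neuron identity is built. They were taken by matching each symbol to its Ensembl gene ID, and all 7 of 7 were found among the 51912 gene IDs of the deposited tables. All 7 also passed the filter on low counts, which left 17990 genes for testing. HM1 mouse embryonic stem cells were followed by polyadenylated RNA sequencing at days 0, 0.5, 1, 1.5, 2, 2.5, 3, 3.5, 4, 5, 6 and 7, with 3 libraries a day and 36 in all. The later days were cultures in N2B27 medium with 100 nM retinoic acid (RA) and 500 nM SAG, a small-molecule agonist of the hedgehog pathway. The day 0 libraries, labelled control, were taken before RA and SAG were added. All 12 groups shared the same earlier culture in bFGF after removal of feeder cells, followed by a day with bFGF, the GSK3 inhibitor CHIR99021, the TGF-beta receptor inhibitor SB431542 and the BMP receptor inhibitor DMH1. The labels describe the start as neuromesodermal progenitors and call the cells of every day neural progenitors, without a sort, so each library is a mixture of cell types in a single cell line. The labels call the 3 libraries of a day biological replicates without saying whether they were separate cultures, so the tests measure the spread between these libraries.

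LIM homeodomain proteins carry a pair of LIM domains, through which they bind the dimerizing cofactor Ldb1 (also called NLI). In embryonic motor neurons, Isl1 binds Ldb1 while Lhx3 binds Isl1, and this complex activates motor neuron genes, whereas Lhx3 and Ldb1 without Isl1 specify V2a interneurons. Lhx4 can stand in for Lhx3, Isl2 is a close relative of Isl1, Mnx1 (HB9) holds back the interneuron programme, and Lmo4 is a LIM-only protein that competes for Ldb1. In the embryo Lhx3 and Lhx4 stay on in the motor neurons of the medial motor column and are switched off in other columns.

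On build GRCm38, GENCODE places Isl1 (ENSMUSG00000042258) on chromosome 13 at 116298281 to 116309689 and Lhx3 (ENSMUSG00000026934) on chromosome 2 at 26200212 to 26208289, both on the minus strand. Lhx4 (ENSMUSG00000026468) lies on chromosome 1 at 155698031 to 155751684 and Mnx1 (ENSMUSG00000001566) on chromosome 5 at 29473034 to 29478470, both also on the minus strand. Isl2 (ENSMUSG00000032318) lies on the plus strand of chromosome 9 at 55538672 to 55546180. Lmo4 (ENSMUSG00000028266) is on the minus strand of chromosome 3 at 144188530 to 144205220, and Ldb1 (ENSMUSG00000025223) on that of chromosome 19 at 46031570 to 46045214. Annotated exons of Lhx3 overlap those of Gm27196 on the other strand, and those of Ldb1 overlap Pprc1. Whether reads were counted by strand is not given in the sources used here, so the levels of Lhx3 and Ldb1 are uncertain to that degree. Gm27196 did not exceed 0.76 TPM in any library. Pprc1, by contrast, averaged 22.5 TPM at day 7 and 84.5 TPM at day 0, the opposite direction to Ldb1, and its part in the Ldb1 counts was not tested.

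The bases before the annotated start sites are shown because the members came on at different days, and proneural bHLH factors bind E-boxes while LIM and other homeodomain factors bind TAAT cores. The sequences are those of RefSeq on GRCm38.p6, 5′ to 3′ on the gene's strand, and bases lying in annotated exons were removed. Capitals mark CANNTG and TAAT on either strand, so that ATTA is TAAT on the other strand.
Isl1, chr13:116309690-116309938, minus strand: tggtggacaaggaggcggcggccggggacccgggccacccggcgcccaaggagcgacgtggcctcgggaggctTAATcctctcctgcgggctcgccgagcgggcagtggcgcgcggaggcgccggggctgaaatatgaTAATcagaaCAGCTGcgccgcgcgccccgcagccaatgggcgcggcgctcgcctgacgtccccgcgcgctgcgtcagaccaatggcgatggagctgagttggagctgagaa
Lhx3, upstream start, chr2:26208290-26208499, minus strand: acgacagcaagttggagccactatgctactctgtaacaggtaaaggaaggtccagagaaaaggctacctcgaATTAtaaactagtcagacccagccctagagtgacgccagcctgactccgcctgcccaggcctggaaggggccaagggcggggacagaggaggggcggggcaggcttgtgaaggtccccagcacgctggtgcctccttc
Lhx3, downstream start, chr2:26206576-26206825, minus strand: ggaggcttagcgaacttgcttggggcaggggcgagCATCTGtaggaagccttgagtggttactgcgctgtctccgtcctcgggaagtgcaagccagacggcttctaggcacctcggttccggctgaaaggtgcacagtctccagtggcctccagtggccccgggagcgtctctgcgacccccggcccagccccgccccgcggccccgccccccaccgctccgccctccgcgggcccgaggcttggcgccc
Mnx1, chr5:29478471-29478720, minus strand: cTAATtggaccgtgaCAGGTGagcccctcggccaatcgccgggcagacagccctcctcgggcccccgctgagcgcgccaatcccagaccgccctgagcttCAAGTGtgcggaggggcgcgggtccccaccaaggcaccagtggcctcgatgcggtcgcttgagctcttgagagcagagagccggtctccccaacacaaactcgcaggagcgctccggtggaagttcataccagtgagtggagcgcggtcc
The Isl1 window held 1 CANNTG and 2 TAAT cores, of which the second lies a few bases before the E-box. The Mnx1 window held 2 CANNTG and 1 TAAT. At Lhx3 the upstream window held 1 TAAT and the downstream window 1 CANNTG. The windows of Isl2 (chr9:55540899-55541148) and Lhx4 (chr1:155742028-155742277) held neither motif. Both windows lie inside the GENCODE spans given above, so the bases before the outermost GENCODE starts of these genes were not searched. By the rule used below, Isl2 and Lhx4 came on at the same day as Mnx1. The part of the motifs in onset was not tested. None of the 12 windows of the 7 genes held the paired homeodomain core TAATTA on either strand, the nuclear receptor motif AGGTCA or the Gli motif TGGGTGGTC. Of 32851 mouse windows of 250 bases, 66.2% held CANNTG and 54.9% held TAAT, so either marked motif is common. The other motifs were rarer, with TAATTA in 4.84% of windows, the nuclear receptor motif in 14% and the Gli motif in 0.225%. A match is a run of letters and does not show a bound site, and TAATTA counts as a TAAT too.

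The libraries held between 26567321 and 35757989 expected counts, of which 0.949% to 1.92% were mitochondrial. No libraries of the same day held identical values. The chi-square of the counts per degree of freedom between replicates lay between 3.0 and 49.9, with the highest between replicates 1 and 2 of day 0. Levels are given as TPM, which is corrected for gene length and can be compared between genes. At low counts TPM did not always follow the counts. Isl1 at day 0.5 had 33, 33 and 37 counts but 0.72, 1.19 and 0.82 TPM. Isl2 at day 6 had 0.64 TPM from 7 counts in replicate 1 and 0.55 TPM from 14 in replicate 2. Onset days set by a TPM cut-off and late ratios carry this scatter. Fold changes are fitted log2 changes of the counts from edgeR's quasi-likelihood test with an approximate standard error, and a gene was called at a Benjamini-Hochberg adjusted p under 0.05 over all genes tested. Relative to those fits, TPM ratios were shifted by a median of 0.19 on the log2 scale at day 3 against day 0, 0.36 at day 7 against day 0 and 0.17 at day 7 against day 3, which bears on the small changes of Lmo4 and Ldb1. In such bulk samples, fewer cells of a type and less RNA per cell cannot be told apart.

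Isl1, Isl2, Lhx3, Lhx4 and Mnx1 rose to a peak and fell again within the week, Mnx1 from a low level already present at day 0, while Lmo4 and Ldb1 were present throughout. Isl1 and Lhx3 came first, Isl2, Lhx4 and Mnx1 followed at day 2, and every one of these 5 genes was highest at day 2.5 or 3 and had lost most of its RNA by day 6. Lmo4 and Ldb1 had risen by day 0.5 and stood at 98.7% and 95.1% of their highest means at day 7.

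**Figure D1:**
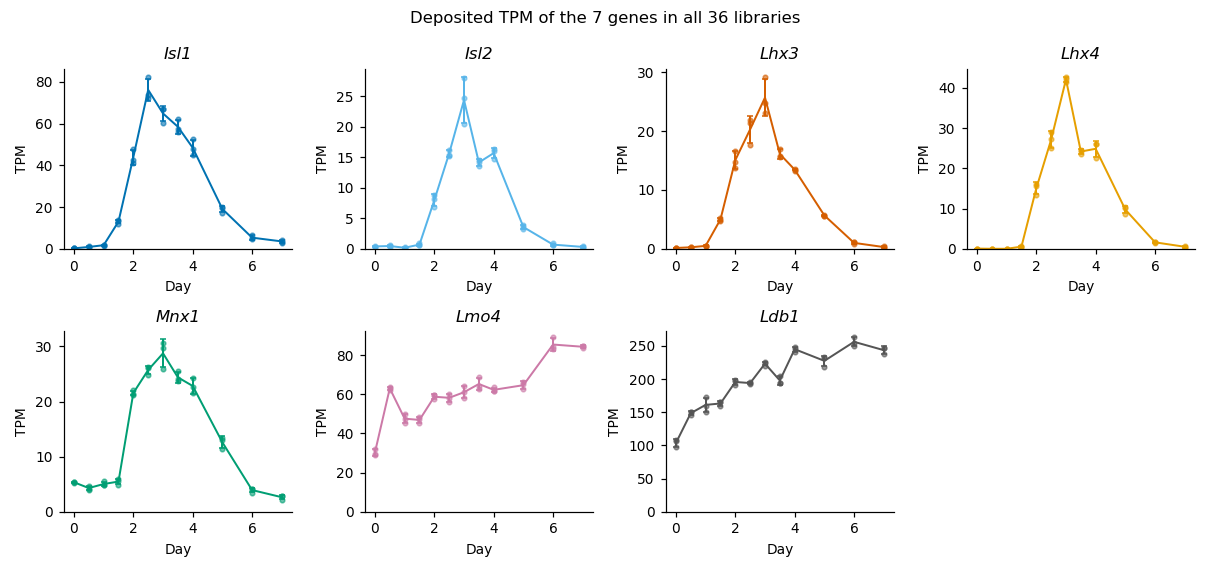
TPM of each gene (vertical axis, scaled separately for each panel) against day of differentiation, with a point per library and a line through the means with error bars of 1 SD (n = 3). Isl1 peaks at 76.2 TPM on day 2.5 and Isl2, Lhx3, Lhx4 and Mnx1 peak on day 3, while Lmo4 and Ldb1 stay high to day 7.

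Isl1, the first LIM homeodomain gene of postmitotic motor neurons, had 0.72, 1.19 and 0.82 TPM in the day 0.5 libraries, against 0.19, 0.20 and 0.32 TPM in the day 0 libraries. The groups did not overlap, but the counts were small, at 103 in all at day 0.5 and 16 at day 0, a ratio of 6.43 with a 95% counting interval of 3.78 to 11.7. Its RNA was still rare at day 1, with 1.80, 1.40 and 2.04 TPM, and rose at day 1.5 to 13.8, 12.1 and 13.3 TPM. This step of 3.12 ± 0.15 on the log2 scale (adjusted p = 7.58e-18) was the steepest of its course. The day 2 libraries then held 48.1, 41.1 and 42.7 TPM and the day 2.5 libraries 72.4, 74.0 and 82.3 TPM, all above the day 2 libraries. The mean of 76.2 ± 5.34 TPM (SD, n = 3) at day 2.5 was its highest, and at day 3 it was lower by 0.34 ± 0.09 (adjusted p = 0.00225). That early decline was not called in limma on log2(TPM + 1), where it was -0.23 (adjusted p = 0.153). Days 3.5 and 3, at 58.5 and 64.9 TPM, overlapped, as did days 4 and 2, at 48.5 and 44.0 TPM.

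Lhx3, the LIM homeodomain partner of Isl1 in the motor neuron complex, followed within 12 hours. At day 1 it had 0.54, 0.41 and 0.56 TPM, against 0.20, 0.15 and 0.10 TPM at day 0, a change of 1.45 ± 0.33 (adjusted p = 0.000302). At day 1.5 all 3 libraries were near 5 TPM, with 4.90, 4.79 and 5.31 TPM, and the step from day 1 of 3.56 ± 0.16 (adjusted p = 2.99e-18) was its steepest. Its level then rose in each later step to 24.8, 23.2 and 29.2 TPM at day 3, its highest day. The last of these steps, 0.31 ± 0.09 over day 2.5, rests on 1 library in part, since it was 0.24 without day 3 replicate 3 (adjusted p = 0.0659) and 0.21 without day 2.5 replicate 3 (adjusted p = 0.0715).

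Lhx4, which shares much of the role of Lhx3 in motor neurons, had no more than 3 counts in any day 0 library. At day 1.5 it had 0.78, 0.36 and 0.50 TPM from 159 counts, against 6 counts in all at day 1, a count ratio of 25.2 with an interval of 11.3 to 69.7. At day 2 it reached 16.2, 13.3 and 15.6 TPM, far above every library of day 1.5. By day 3 its libraries held 41.5, 42.2 and 42.6 TPM, with an SD of 0.565 TPM, the smallest of the 5 genes at their peaks. The count ratio of day 3 to day 0 was 1034 with an interval of 525 to 2396. Of the day 3 means, only that of Isl1 at 64.9 TPM was higher among the 5.

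Isl2, the Islet paralogue expressed in postmitotic motor neurons, was at 0.12, 0.15 and 0.27 TPM at day 1, against 0.33, 0.48 and 0.38 TPM at day 0. That change of -1.02 ± 0.41 (adjusted p = 0.0327) rests on 16 counts at day 1 and 32 at day 0 and was not called without replicate 2 of day 0 (-0.88, adjusted p = 0.11), without replicate 3 of day 0 (-1.04, adjusted p = 0.0526), nor without replicate 1 or 2 of day 1 (-0.78 and -0.87, adjusted p = 0.136 and 0.106). Its first rise over day 0, 0.87 ± 0.31 at day 1.5 (adjusted p = 0.0129), was likewise lost without day 0 replicate 1 (adjusted p = 0.072) or day 1.5 replicate 1 or 3 (adjusted p = 0.0608 and 0.0589). The rise at day 2 was larger, with 8.88, 8.14 and 6.93 TPM against at most 0.89 TPM at day 1.5, a step of 3.51 ± 0.18 (adjusted p = 4.4e-17). At day 3 the 3 libraries held 24.7, 20.5 and 28.0 TPM, and all lay above those of every other day.

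Mnx1, the homeobox gene known as HB9 in motor neurons, differed from the other 4 in being present before the treatment. Its day 0 mean of 5.35 TPM was 18.6% of its highest mean, whereas the other 4 stood at 0.158% to 1.63% of theirs. At day 0.5 it fell to 4.76, 3.96 and 4.18 TPM, against 5.30, 5.35 and 5.40 TPM at day 0, a change of -0.32 ± 0.10 (adjusted p = 0.00471), which was not called in fits without every replicate 2 (adjusted p = 0.0572) or every replicate 3 (adjusted p = 0.0636). At day 1.5 it differed from day 0 by 0.04 ± 0.09 (adjusted p = 0.709). It then rose in a single 12-hour step to 22.01, 21.4 and 21.2 TPM at day 2, against 5.93, 4.90 and 5.60 TPM at day 1.5 (1.82 ± 0.08, adjusted p = 1.82e-18). After that it moved little for 2 days, with means of 21.6, 25.7, 28.7, 24.4 and 22.8 TPM at days 2, 2.5, 3, 3.5 and 4, in which each level overlapped with the next in rank.

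**Figure D2:**
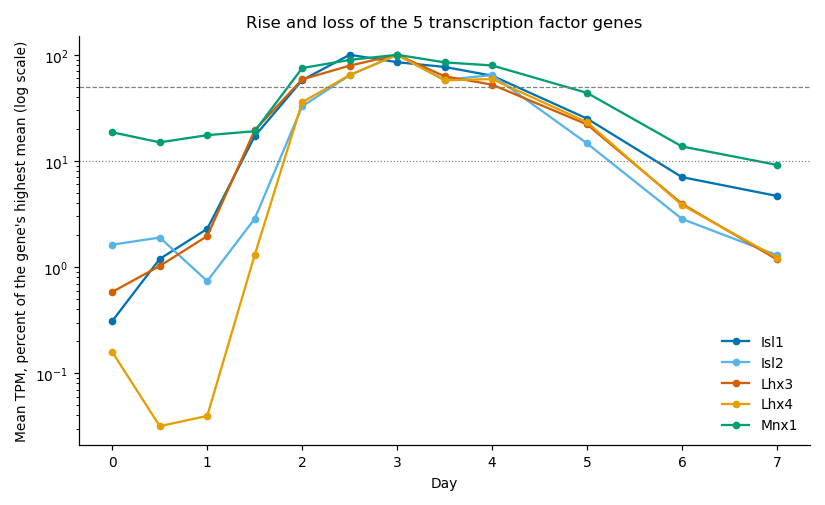
Mean TPM of Isl1, Isl2, Lhx3, Lhx4 and Mnx1 as percent of each gene's own highest mean (vertical axis, log scale) against day, with dashed and dotted lines at 50% and 10%. Isl1 and Lhx3 rise ahead of Isl2 and Lhx4, Mnx1 starts at 18.6%, and at day 7 Isl1 keeps 4.68% and Mnx1 9.17% against 1.18% to 1.3% for the others.

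Onset was set as the first day on which a gene was called higher than day 0, by at least 2-fold, with a mean of at least 1 TPM. By this rule Lmo4 came on at day 0.5, Isl1 at day 1, Lhx3 at day 1.5 and Isl2, Lhx4 and Mnx1 at day 2. Ldb1 stayed under 2-fold on every day in the count fit. In limma on log2(TPM + 1) its onset was at day 3, with a mean of 223 TPM against 103.6 TPM at day 0. The order of the early days depends on the level asked for. With 1.5-fold and any TPM, onset was at day 0.5 for Isl1, day 1 for Lhx3 and Ldb1, and day 1.5 for Isl2 and Lhx4. With 4-fold and 5 TPM, Isl1 shared day 1.5 with Lhx3, Mnx1 moved to day 2.5 and Lmo4 had none. The Lhx3 mean at day 1.5 lay right at that cut-off, at 5 TPM, while that of Isl1 was 13.1 TPM. Measured instead by the day on which 50% of the highest mean was passed, Isl1, Lhx3 and Mnx1 shared day 2, and Isl2 and Lhx4 followed at day 2.5.

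Set against all genes, 3 members were higher at day 0.5 than at day 0 (Isl1, Lmo4 and Ldb1), where 27.6% of genes tested were, and Mnx1 was lower, where 26.7% were. At day 1 the 4 members higher than day 0 were Isl1, Lhx3, Lmo4 and Ldb1, where 31.0% of genes were, and Isl2 was lower, where 31.5% were. At day 1.5 it was 6 of 7, all but Mnx1, beside 37.8% of genes. At day 2 all 7 were higher, beside 36.7%. They were all still higher than day 0 at days 2.5, 3, 3.5, 4 and 5, beside 38.0%, 39.2%, 39.4%, 41.0% and 42.2% of genes. At day 6 the 5 still higher were Isl1, Lhx3, Lhx4, Lmo4 and Ldb1, beside 43.9%, and Mnx1 was lower, beside 41.1%.

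The step from day 1.5 to day 2 was the only neighbouring step in which all 7 members rose, where 26.1% of genes tested did. Between days 0.5 and 1, Isl1 and Ldb1 rose beside 23.3% of genes and Isl2 and Lmo4 fell beside 24.3%. Of these small early changes, the rise of Isl1 was not called without day 0.5 replicate 1 or 3 or day 1 replicate 3 (adjusted p = 0.0686, 0.0581 and 0.288), and that of Ldb1 was not called without day 1 replicate 1 (adjusted p = 0.0713). The fall of Isl2 was not called without day 0.5 replicate 3 or day 1 replicate 1 or 2 (adjusted p = 0.0701, 0.08 and 0.0638). At day 1.5 over day 1, 4 rose (Isl1, Isl2, Lhx3 and Lhx4) beside 27.0% of genes, and at day 2.5 over day 2 the 5 transcription factor genes rose beside 24.9%. At day 3 over day 2.5 Isl2, Lhx3, Lhx4 and Ldb1 rose, where 18.1% of genes did, and Isl1 alone fell, where 16.3% did.

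**Figure D3:**
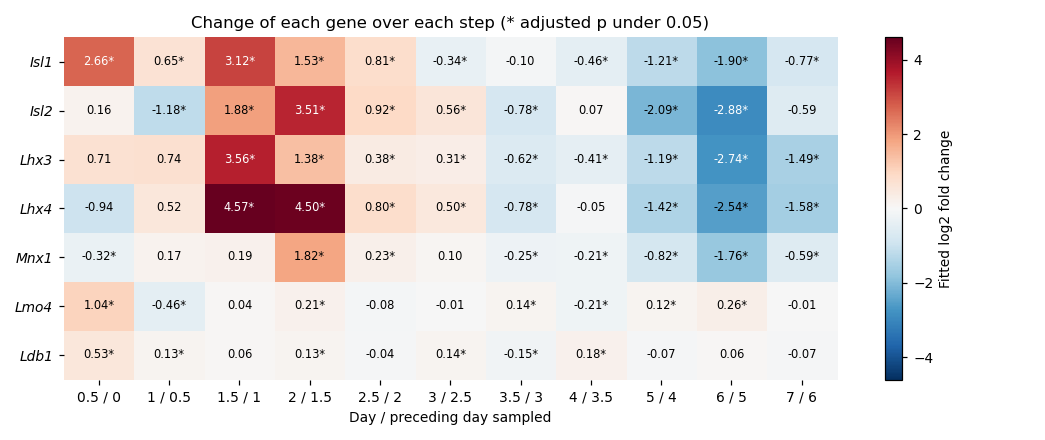
Fitted log2 fold change of each gene (rows) over each step between neighbouring sampled days (columns, later day over earlier day), in red for higher and blue for lower, with an asterisk where the adjusted p was under 0.05. The steps up to day 4 are 12 hours and those after day 4 are 24 hours, and all 5 transcription factor genes fell in the steps to day 5 and day 6.

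The decline began at different times, though its start in Isl2 and Lhx4 rests on the 3 libraries of day 3. Isl2 averaged 15.7, 24.4, 14.2 and 15.7 TPM at days 2.5, 3, 3.5 and 4. Over the same days Lhx4 averaged 27.1, 42.1, 24.2 and 24.8 TPM. At day 3.5 Isl2, Lhx3 and Lhx4 fell below day 3 by 0.78 ± 0.12, 0.62 ± 0.09 and 0.78 ± 0.08, and Mnx1 and Ldb1 fell by 0.25 ± 0.07 and 0.15 ± 0.04, so that 5 of 7 members fell where 19.8% of genes did. Lmo4 rose by 0.14 ± 0.04 (adjusted p = 0.00844), where 21.0% of genes did, but was not called without day 3.5 replicate 2 (adjusted p = 0.0552). The fall of Mnx1 was not called without day 3 replicate 3 (-0.19, adjusted p = 0.0622). Isl1 was not called in this step, at -0.10 ± 0.09 (adjusted p = 0.406). At day 4 the 4 that fell were Isl1, Lhx3, Mnx1 and Lmo4, beside 20.8% of genes, and Ldb1 rose, beside 19.4%, while Isl2 and Lhx4 held at 0.07 ± 0.12 and -0.05 ± 0.08. Of these, the call of Mnx1 was lost without day 3.5 replicate 1, day 4 replicate 1 or day 4 replicate 3 (adjusted p = 0.0815, 0.173 and 0.059). In limma on log2(TPM + 1), Isl1, Mnx1 and Lmo4 were not called at this step (adjusted p = 0.0726, 0.422 and 0.251).

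From day 4 on the 5 genes fell together. All 5 were lower at day 5 than at day 4, where 16.8% of genes tested were, and all 5 again at day 6 than at day 5, where 26.4% were. Lmo4 rose in both steps, where 21.2% and 24.1% of genes did, though its rise at day 5 of 0.12 ± 0.04 (adjusted p = 0.0211) was not called without day 4 replicate 1 (adjusted p = 0.147) or day 5 replicate 2 (adjusted p = 0.0734). Over the last day 4 fell (Isl1, Lhx3, Lhx4 and Mnx1), beside 8.95% of genes, and Isl2 was not called at -0.59 ± 0.35 (adjusted p = 0.269) with 27 counts at day 7 and 39 at day 6. Without day 7 replicate 3, which had the highest Isl2 of that day, the change was -1.18 and was called (adjusted p = 0.0484). In TPM all 5 passed below 50% of their highest mean at day 5, and in CPM Lhx3 did so at day 4, at 12.8 CPM, against 26.1 CPM at day 3. Isl1, Isl2, Lhx3 and Lhx4 passed below 10% at day 6 and Mnx1 at day 7.

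At day 7 these 5 members were lower than at day 3, where 36.1% of genes tested were, Lmo4 was higher, where 36.2% were, and Ldb1 was not called. Day 3 was chosen knowing that Mnx1 and Lhx3 were highest there, so their falls describe a pattern already known and are not independent tests. Lhx3 had 0.21, 0.25 and 0.45 TPM at day 7, against 24.8, 23.2 and 29.2 TPM at day 3, a change of -6.44 ± 0.15 (adjusted p = 2.6e-27). Lhx4 had 0.79, 0.31 and 0.45 TPM at day 7, against 41.5, 42.2 and 42.6 TPM at day 3 (-6.36 ± 0.13, adjusted p = 5.47e-29). Isl2 had 0.25, 0.18 and 0.52 TPM at day 7, against 24.7, 20.5 and 28.0 TPM at day 3 (-6.26 ± 0.19, adjusted p = 2.12e-24). These 3 genes were under 1 TPM in every day 7 library.

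Isl1 and Mnx1 fell by smaller fitted folds. Isl1 had 2.81, 4.38 and 3.51 TPM at day 7, against 67.2, 67.0 and 60.6 TPM at day 3, a change of -4.44 ± 0.12 (adjusted p = 6.85e-26). Mnx1 had 2.84, 2.87 and 2.2 TPM at day 7, against 29.6, 25.9 and 30.7 TPM at day 3 (-3.63 ± 0.09, adjusted p = 1.89e-26). Set against the start, 4 members were higher at day 7 than at day 0, where 44.1% of genes were: Isl1 by 3.98 ± 0.33, Lhx4 by 3.59 ± 0.45, Lmo4 by 1.04 ± 0.04 and Ldb1 by 0.89 ± 0.04. Mnx1 was lower than at day 0 by 1.43 ± 0.11 (adjusted p = 2.27e-14), where 41.2% of genes were. Isl2 and Lhx3 were not called, at -0.42 ± 0.37 (adjusted p = 0.289) and 0.63 ± 0.37 (adjusted p = 0.152). Isl2 was called lower without day 7 replicate 3 (-1.01, adjusted p = 0.0346).

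Since the 5 genes rose and fell over the same days, their ratios within a library show where their courses parted. The ratio of Isl2 to Isl1 averaged 0.053, 0.182, 0.206 and 0.379 at days 1.5, 2, 2.5 and 3, then 0.242, 0.325, 0.188, 0.129 and 0.0927 at days 3.5, 4, 5, 6 and 7. The day 3.5 libraries, at 0.23 to 0.255, lay below all libraries of day 3, at 0.306 to 0.462, and of day 4, at 0.304 to 0.343, so the course was not smooth. The ratio of Lhx3 to Isl1 lay between 0.269 and 0.399 from day 1.5 to day 5 and averaged 0.192 at day 6 and 0.0867 at day 7. Within that range it too was lower at day 3.5, at 0.273 to 0.28, against 0.346 to 0.482 at day 3. Here day 3 was the day that stood apart, since the means at days 2.5 and 4 were 0.269 and 0.279. The ratio of Mnx1 to Isl1 went the other way late, with 0.472, 0.659, 0.745 and 0.764 at days 4, 5, 6 and 7. Among the late libraries, then, Isl2 and Lhx3 were the lower and Mnx1 the higher relative to Isl1.

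At day 7 the log2 ratio of Isl2 to Isl1 was -3.62 ± 0.93, against -1.42 ± 0.30 at day 3 (SD, n = 3 each), and the libraries did not overlap (exact permutation test, two-sided, p = 0.10). For Lhx3 to Isl1 it was -3.61 ± 0.59 at day 7, against -1.34 ± 0.25 at day 3 (exact permutation p = 0.10). For Mnx1 to Isl1 it was -0.42 ± 0.38 at day 7, against -1.18 ± 0.19 at day 3 (exact permutation p = 0.10). A p of 0.10 is the smallest that 3 libraries against 3 allow, so none of the 5 ratios tested could pass 0.05, and adjusted over the 5 these p-values were 0.125. With log2(TPM + 1) in place of log2(TPM) the differences of Isl2 and Lhx3 to Isl1 shrank to -0.40 and -0.49. Both day 7 ratios rest on few counts, with 27 of Isl2 and 30 of Lhx3 in all.

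Lhx4 overtook Lhx3 during the rise. The ratio of Lhx4 to Lhx3 averaged 0.11 ± 0.0441 at day 1.5, 0.998 ± 0.0852 at day 2, 1.35 ± 0.261 at day 2.5 and 1.65 ± 0.183 at day 3 (SD, n = 3). The 3 libraries of day 3 lay between 1.46 and 1.82, against 0.0752 to 0.159 at day 1.5. From day 3 to day 6 the mean stayed between 1.5 and 1.85. At day 7 it ranged from 1 to 3.76, and its log2 value of 0.74 ± 1.03 was not told apart from 0.72 ± 0.16 at day 3 (exact permutation p = 1.00). The sign of that small difference was not stable, since without day 7 replicate 1 it was -0.56. The day 7 libraries held only 7, 8 and 15 counts of Lhx3.

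**Figure D4:**
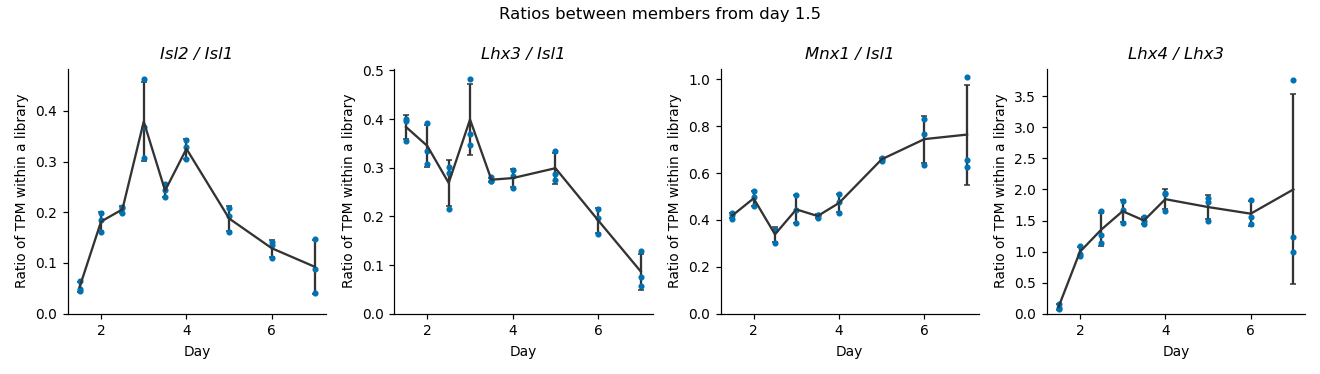
Ratio of TPM between members within each library (vertical axis, linear, from 0) against day from day 1.5 on, with a point per library and a line through the means with error bars of 1 SD (n = 3). Isl2 and Lhx3 are lower relative to Isl1 at day 3.5 than at day 3 and are lowest among days 2 to 7 at day 7, Mnx1 is higher relative to Isl1 from day 5, and Lhx4 is level with Lhx3 at day 2 and above it in every library of day 2.5.

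Ldb1, the cofactor that joins LIM homeodomain proteins, and Lmo4, its LIM-only partner, followed a different course. Lmo4 had 64.0, 63.1 and 62.2 TPM at day 0.5, against 29.6, 29.0 and 32.3 TPM at day 0, a rise of 1.04 ± 0.04 (adjusted p = 4.72e-20). It fell again at day 1 to 45.2, 47.6 and 49.96 TPM (-0.46 ± 0.04 against day 0.5, adjusted p = 6.06e-11). Lmo4 had thus come down from this early maximum before Lhx3 reached 1 TPM. In TPM, Lmo4 was highest at day 6, with 84.3, 83.0 and 89.1 TPM, and at day 7, with 84.6, 85.0 and 83.5 TPM. On the count scale these days were close to day 0.5, as the fitted changes from day 0 were 1.04 ± 0.04, 1.05 ± 0.04 and 1.04 ± 0.04 at days 0.5, 6 and 7. It was higher at day 7 than at day 3 by 0.30 ± 0.04 (adjusted p = 1.11e-07).

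Ldb1 had 150, 150 and 145 TPM at day 0.5, against 96.8, 108 and 106 TPM at day 0, a rise of 0.53 ± 0.04 (adjusted p = 5.71e-14). Its mean was 244 TPM at day 7, against 223 TPM at day 3, and the difference between these days was -0.05 ± 0.04 in the count fit (adjusted p = 0.176). On log2(TPM + 1) with limma the same difference was 0.13 and was called (adjusted p = 0.00556), so its sign depends on the scale. The mean ratio of Lmo4 to Ldb1 was highest at day 0.5, at 0.425, and lowest at day 4, at 0.254, and at day 7 it was 0.346. On the per-length scale Ldb1 thus exceeded Lmo4 on every day, and at day 3 its mean of 223 TPM stood above those of Isl1, Lhx3 and Lhx4, at 64.9, 25.7 and 42.1 TPM.

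For the lists counted from here on, the shares over all genes tested stand beside the counts. At day 3 against day 0, 39.2% of genes were higher, and at day 7 against day 3, 36.2% were higher and 36.1% lower. Other LIM homeobox genes and LIM cofactors were counted as a list of 16, of which 15 were tested. At day 3 against day 0, 9 were higher and 6 lower, with a median of 1.27 on the log2 scale beside 0.02 over all genes. At day 7 against day 3, 8 were higher and 5 lower, with a median of 0.87 beside -0.01 over all genes. The LIM-only gene Lmo1 followed the members, with 6.20 ± 0.753 TPM at day 7, against 17.9 ± 0.894 TPM at day 3 (-1.55 ± 0.12). Lmo3, another LIM-only gene, went the other way, with 30.8 ± 0.705 TPM at day 7, against 1.18 ± 0.142 TPM at day 3 (4.91 ± 0.17). Lmx1b, a LIM homeobox gene of dorsal interneurons and serotonergic neurons, also rose, to 21.2 ± 2.51 TPM at day 7, against 4.75 ± 0.689 TPM at day 3 (1.95 ± 0.10). Lhx1, a LIM homeobox gene of lateral motor column and interneurons, was at 4.77 ± 0.324 TPM at day 7 and 4.85 ± 0.64 TPM at day 3 and was not called between them, but it was highest at day 4, with 17 TPM. Lhx5 and Lhx9 averaged under 1 TPM on every day.

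Motor neuron effector genes were higher at day 3 than at day 0 in 17 of 20 cases and lower in 2, with a median of 3.65 beside 0.02 over all genes. At day 7 against day 3, 8 were higher and 10 lower, with a median of -0.19, so they did not fall as a group. Of the genes that act at cholinergic synapses, some fell and others did not. Slc18a3, the vesicular acetylcholine transporter, averaged 6.22 ± 0.359 TPM at day 7, against 83.6 ± 3.37 TPM at day 3 (-3.92 ± 0.08). Chat, which makes acetylcholine, averaged 1.20 ± 0.208 TPM at day 7, against 9.77 ± 1.12 TPM at day 3 (-3.20 ± 0.13), and Slc10a4, a transporter of cholinergic vesicles, changed by -3.51 ± 0.08. Slit2, an axon guidance ligand, averaged 134 ± 11.2 TPM at day 7, against 298 ± 20.5 TPM at day 3, and changed by -0.35 ± 0.06 in the count fit, a smaller change than that in TPM. Slc5a7, the choline transporter, was outside the rule for named genes and was added after its values were seen. It averaged 1.23 ± 0.19 TPM at day 7, against 1.03 ± 0.0153 TPM at day 3, and was not called (0.10 ± 0.21, adjusted p = 0.7). Ache, the acetylcholinesterase gene, and Gfra1, a GDNF co-receptor, rose by 1.97 ± 0.09 and 0.92 ± 0.07 over the same days.

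Progenitor genes were higher at day 3 than at day 0 in 10 of 10 cases and lower at day 7 than at day 3 in 8 of 10, with medians of 3.57 and -1.51. Neurog2, the proneural factor of motor neuron progenitors, fell to 1.13 ± 0.127 TPM at day 7, against 99.5 ± 13.1 TPM at day 3 (-6.63 ± 0.15). Olig2, the bHLH factor of the motor neuron progenitor domain, was still at 45.4 ± 1.90 TPM at day 7, against 108 ± 12.2 TPM at day 3. Nkx6-1, a ventral homeobox gene, was at 69.3 ± 2.45 TPM at day 7, against 187 ± 5.18 TPM at day 3. Pan-neuronal genes rose at day 3 over day 0 in 12 of 12 cases, and at day 7 against day 3, 8 were higher and 3 lower, with a median of 0.48. Among them Tubb3, a neuronal tubulin, averaged 1121 ± 42.8 TPM at day 7 and 953 ± 31.8 TPM at day 3 and was not called, and Dcx, a microtubule protein of young neurons, rose by 0.68 ± 0.09. The neurofilament genes Nefm and Nefl fell by 2.49 ± 0.11 and 0.47 ± 0.07, and Elavl4, a neuronal RNA-binding protein gene, fell by 0.61 ± 0.07. These 3 genes were named after their values were seen. Nefm averaged 32.9 ± 1.71 TPM at day 7, against 166 ± 18.4 TPM at day 3.

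**Figure D5:**
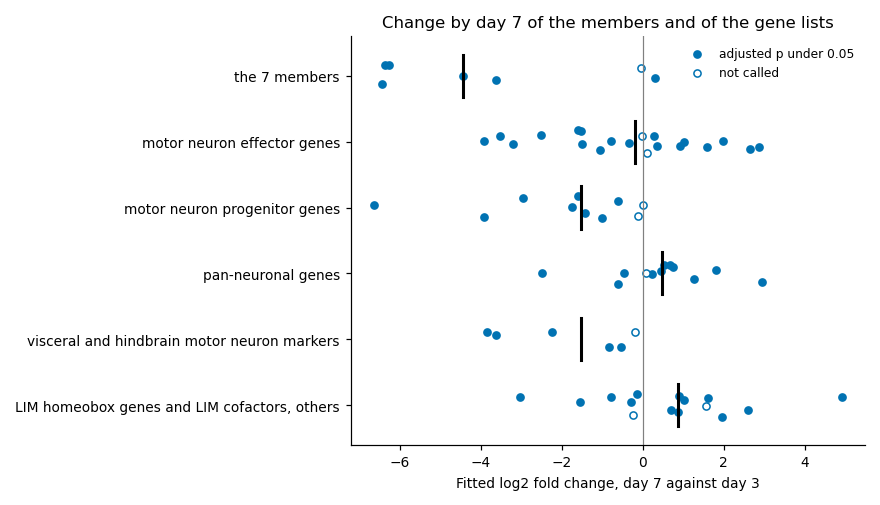
Fitted log2 fold change at day 7 against day 3 (horizontal axis) for the 7 members and for 5 gene lists (rows), with a point per gene, filled where the adjusted p was under 0.05, and a black bar at the median. The 5 transcription factor members lie between -6.44 and -3.63, while the median is -0.19 for motor neuron effector genes and 0.48 for pan-neuronal genes.

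Several members are also used by other cells, whose markers moved on the same days. Isl1 marks cranial and visceral motor neurons and sensory neurons, and the 6 visceral and hindbrain motor neuron markers were all higher at day 3 than at day 0, with 5 lower at day 7 than at day 3. Their summed level was 6.02 to 7.8 TPM at day 0, 101 to 137 TPM at day 3 and 21.2 to 25.2 TPM at day 7. Phox2a, a homeobox gene of cranial and visceral motor neurons, averaged 2.96 ± 0.502 TPM at day 7, against 39.2 ± 5.72 TPM at day 3. Of 6 sensory and dI3 neuron markers 5 were tested, with 4 higher at day 3 than at day 0 and 4 lower at day 7 than at day 3. Their summed level was 5.36 to 7.35 TPM at day 0, 49.1 to 54.6 TPM at day 3 and 13.2 to 14.6 TPM at day 7. Prdm12, a defining sensory factor, averaged 0.0167 TPM at day 3. The part of these cells in the course of Isl1 was not tested.

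Lhx3 and Lhx4 also mark V2 interneurons, and the V2 markers differed among themselves. Sox14 and Vsx1 averaged at most 0.05 and 0.163 TPM on any day. Gata2, Bhlhe22 and Gata3 were named after their values were seen. Gata2, a V2b factor, averaged 3.92 ± 0.655 TPM at day 3, against 2.6 ± 0.448 TPM at day 0 (0.63 ± 0.18), and was highest at day 4 with 9.67 TPM. Bhlhe22 averaged 10.5 ± 0.505 TPM at day 7, against 1.38 ± 0.291 TPM at day 3 (2.77 ± 0.18). Gata3, another V2b factor, averaged 2.04 ± 0.358 TPM at day 7, against 0.583 ± 0.4 TPM at day 3 (1.92 ± 0.29). The part of V2 cells in the courses of Lhx3 and Lhx4 was not tested. The marker counts that follow are from short lists. Over all genes tested, 39.2% were higher at day 3 than at day 0, and 36.2% were higher and 36.1% lower at day 7 than at day 3. Of the 8 V2 markers 7 were tested, and 2 were higher and 3 lower at day 3 than at day 0, with 2 higher and 2 lower at day 7 than at day 3. Their summed level was 6.5 to 8.1 TPM at day 0, 7.01 to 7.86 TPM at day 3 and 17 to 18.9 TPM at day 7. Mnx1 is expressed in notochord and pancreatic endoderm as well, and the notochord gene Noto averaged at most 0.07 TPM on any day, while the endoderm gene Pdx1 was at 0 TPM at day 3, against 0.75 TPM at day 0. The mesoderm gene T, or Brachyury, averaged 2.32 ± 1.13 TPM at day 3, against 37.2 ± 2.85 TPM at day 0, and its part in the day 0 level of Mnx1 was not tested. Of the 8 notochord and endoderm markers 7 were tested, and 2 were higher and 3 lower at day 3 than at day 0, with 2 higher and 2 lower at day 7 than at day 3. Foxa2, which also marks floor plate, made up most of their summed level of 39.7 to 45 TPM at day 0, 68 to 78.3 TPM at day 3 and 155 to 171 TPM at day 7, except at day 0, where T did. Isl1 also marks cardiac progenitors, and 2 of the 4 cardiac markers tested were higher and 2 lower at day 3 than at day 0, and 1 higher at day 7 than at day 3. All 6 cardiac markers together came to 2.68 to 3.19 TPM at day 0, 2.83 to 3.7 TPM at day 3 and 3.84 to 4.09 TPM at day 7.

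The genes whose courses were most like those of the members were ranked by Pearson's r of the mean log2(TPM + 1) over the 12 days among 12037 genes, as a description over the means of a single time course. For Isl1 they were Onecut1 (r = 0.984), Plk3, Fbxo16, Lhx3 and Sst, and Lhx3 (r = 0.978) was itself a member. For Lhx3 they were Plk3 (r = 0.987), Il4ra, Isl1, Pde7a and Chrnb4. For Lhx4 they were Chat (r = 0.985), Isl2, Slc18a3, Onecut2 and Uts2b, so that 2 cholinergic genes of the effector list were among the 5. For Isl2 they were Sema3d (r = 0.984), Lhx4, Spp2, Mnx1 and Uts2b, and for Mnx1 they were Isl2 (r = 0.973), Slc25a24, Spp2, Lhx4 and Eif4e3. Between members, r was 0.98 for Isl1 with Lhx3 and for Isl2 with Lhx4, and 0.90 to 0.97 for the other pairs of the 5 transcription factor genes. Lmo4 and Ldb1 had r = 0.88 with each other and between 0.02 and 0.57 with the 5 transcription factor genes.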

How the data were processed

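Polyadenylated RNA of HM1 cultures was sequenced at 12 time points with 3 replicates each. The submitters' processing notes name bcl2fastq 2.20.0, RSEM and build GRCm38; the aligner is not given in the sources used here. The authors deposited expected counts per gene from RSEM, which are estimates (6.87% were not whole numbers), and a table of TPM. TPM is a share of the transcripts in a library, so a change in abundant transcripts moves all other values, and RSEM's division of reads between isoforms sets the length it divides by. Depth was 26567321 to 35757989 counts per library, and counting intervals (95%, exact) cover counting error only.

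Expected counts were rounded. edgeR 4.0.16 in R 4.3.3 fitted all 36 libraries in 1 model of 12 groups (glmQLFit and glmQLFTest, TMM factors 0.924 to 1.06, filterByExpr by time point, 24 residual degrees of freedom), with Benjamini-Hochberg adjustment over 17990 genes in each of 22 contrasts. Standard errors are approximate, taken from each fold change and its F statistic. The scripts were tested on simulated data. Symbols were matched to 51633 of 51912 IDs with GENCODE M21 and RefSeq (Drgx as Prrxl1). Ratios were compared with exact permutation tests. Alternatives were DESeq2 1.42.0 and its size factors, no filter on low counts, the 6 libraries of a contrast alone, a replicate block, limma 3.58.1 on log2(TPM + 1) and log2(TPM + 0.1), other onset rules, CPM, and leaving out libraries.

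The members and lists were chosen with earlier results of these data known. Day 3 was set against day 7 because those results put the highest Mnx1, Lhx3 and Chat at day 3. Named list genes are at most 6 a list, by size of change at day 3 against day 0 among those called, with markers of other cell types near 0; the 5 genes nearest each member by Pearson's r had a highest mean of at least 5 TPM. Exon overlap with other genes leaves Elavl3, Foxp1, Gata3, Cntf, Ache, Cdh8, Gata6, Gfra1, Hand2, Hes5, Lhx5, Map2, Nefl, Nefm, Nkx6-2, Olig1, Phox2a, Prdm12, Sox17, Ssbp2 and Tbx3 uncertain among the listed genes. Some genes of the marker lists are counted in the list totals but are not reported here by name.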

Additional observations from a re-analysis of the deposited data

How the results depend on the processing

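Recomputing 154 single-gene changes under the alternatives gave 2458 values. Of these, 2367 stayed on the same side of the threshold, 66 were no longer called and 25 became called. Among changes called in the main fit, 0 reversed direction. Direction was not compared for changes not called in the main fit, and some of those changed sign. For Ldb1 at day 7 against day 3, -0.05 in the main fit became 0.13 and was called in limma on log2(TPM + 1). Of 69 counts, days, shares and ratios, 25 moved under at least 1 alternative. The count of members lower at day 0.5 against day 0 (1) was 2 in limma on log2(TPM + 0.1), and that at day 1 against day 0 (1) was 0 without the filter, 0 with only the 6 libraries, 0 in limma on log2(TPM + 1) and 2 on log2(TPM + 0.1). In limma on either scale, 0 were lower at day 3 against day 2.5, 0 higher at day 3.5 against day 3, 0 higher at day 5 against day 4, and 2 higher at day 6 against day 5 and at day 7 against day 3. In limma 1 was lower at day 4 against day 3.5 on log2(TPM + 1) and 0 on log2(TPM + 0.1). Without the filter, 0 were higher at day 3.5 against day 3, and 0 at day 5 against day 4, where the 6 libraries alone also gave 0. The cause of these changes was not tested.

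Onset under the looser rule (1.5-fold, any TPM) was day 0.5 for Isl1, 1 for Lhx3 and Ldb1 and 1.5 for Isl2 and Lhx4, under the stricter rule day 1.5 for Isl1, 2.5 for Mnx1 and none for Lmo4, and in limma day 3 for Ldb1. In CPM, Isl1 at day 7 was 3.64% of its highest mean and Ldb1 was highest at day 4. With log2(TPM + 1) the differences of the log2 ratios to Isl1 were -0.40 for Isl2 and -0.49 for Lhx3, and that of Lhx4 to Lhx3 was -0.49, or -0.13 with log2(TPM + 0.1).

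With libraries left out, members lower at day 0.5 against day 0, and at day 1 against day 0, numbered 0 to 1, at day 7 against day 0 1 to 2, at day 1 against day 0.5 1 to 2, and at day 2.5 against day 2 0 to 1. Members higher numbered 1 to 3 at day 1 against day 0.5 and 0 to 1 at day 3.5 against day 3 and at day 5 against day 4. Onset of Isl1 was day 0.5 to 1, that of Ldb1 none or day 4 (without day 0 replicate 2), Lmo4 was highest at day 6 to 7, the day 7 level was 96.9% to 100% for Lmo4 and 93.4% to 97.7% for Ldb1, and the Lhx4 to Lhx3 difference was -0.56 to 0.39. Same-numbered libraries did not deviate together (r between -0.08 and 0.08, with 0 of 22 contrasts having every pair over 0.1). No pairing by replicate number was thus seen, but libraries can share a culture without such a correlation, so this check cannot exclude it. With the replicate block, 7 members were higher at day 3 against day 0 and 5 lower at day 7 against day 3, and no call of a member changed. Depth limits Lhx4, Isl2, Lhx3 and Isl1 at days 0 to 1, where they rest on few counts. It limits Isl2 and Lhx3 late too, at 39 and 81 counts in all at day 6 and 27 and 30 at day 7.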
